A study of Mus musculus with 4 samples.

Results

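The genes of the tricarboxylic acid (TCA) cycle and of pyruvate entry were examined in undifferentiated mouse embryonic stem cells (ESCs) with and without BMAL1, a transcription factor best known from the circadian clock. The 35 genes were chosen by symbol, and each of them matched 1 row among the 19645 features of the deposited tables. They comprise 12 enzymes of the cycle in mitochondria, 5 cytosolic enzymes of citrate and malate, 3 subunits of pyruvate dehydrogenase, 4 kinases and 3 phosphatase subunits that act on it, 2 subunits of the mitochondrial pyruvate carrier, 3 enzymes that add or remove cycle intermediates, and 3 enzymes of glutamate entry. RNA was sequenced after ribosomal depletion as 2 libraries of wild-type (WT) and 2 of *Bmal1* KO ESCs, both grown on gelatin in serum-containing medium with glutamine and LIF. The KO line came from 1 CRISPR/Cas9-edited clone with a frameshift deletion in *Arntl*, the gene that encodes BMAL1, and the WT cells carry no edit by their labels. Effects of genotype and of cell line therefore cannot be told apart, and the p-values measure only the spread between the libraries. The study asked whether loss of BMAL1 alters the expression of metabolic genes, the TCA cycle among them, in pluripotent cells.

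Pyruvate made by glycolysis is either reduced to lactate in the cytosol or taken into mitochondria by a carrier built of MPC1 and MPC2. There, pyruvate dehydrogenase converts it to acetyl-CoA, and this step is switched off when PDH kinases phosphorylate the complex and switched on again by PDH phosphatases. Acetyl-CoA joins oxaloacetate to form citrate, which the cycle oxidises through isocitrate, 2-oxoglutarate, succinate, fumarate and malate, while glutamine-derived glutamate enters at 2-oxoglutarate. ESCs are known for high glycolysis, for use of glutamine and for citrate export that feeds acetyl-CoA to the cytosol and nucleus.

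Levels are given as FPKM, fragments scaled for transcript length and for library size, so that genes can be set beside each other. Where a pair of values follows a genotype, the first is replicate 1 and the second replicate 2. *Arntl* itself had 6.05 and 6.29 FPKM in WT and 5.95 and 5.92 in KO (log2 fold change -0.06, standard error 0.10, adjusted p = 0.750), so its RNA level does not check the genotype labels. *Pou5f1*, *Nanog*, *Sox2* and 7 other ESC markers all met the minimum level used for testing, with *Pou5f1* between 1389 and 1620 FPKM. By the test described below, 1 of the 10 was higher in KO (*Tfcp2l1*) and 3 were lower (*Klf4*, *Tdgf1* and *Utf1*). Of all tested features 6.85% were higher and 5.60% lower. *Pou5f1*, *Nanog* and *Sox2* did not pass. Of 10 fibroblast markers, 7 had a row, their sum ran from 1.91 to 2.24 FPKM in WT and from 2.66 to 3.32 in KO, and *Col3a1* and *Dcn* were each listed at 0 in 3 libraries. Among 6 neural markers *Sox1* and *Pax6* were higher and *Tubb3* lower in KO, and the list summed to 127 to 133 FPKM in WT and 85.4 to 93.0 in KO. Most of that sum was *Tubb3*, with 130 and 124 FPKM in WT and 82.5 and 74.0 in KO. *Nes* was higher in both KO libraries without passing (adjusted p = 0.0541 from limma). Among 10 mesendoderm markers *Eomes* was lower, with sums of 3.39 to 3.50 FPKM in WT and 1.85 to 2.41 in KO, and among 7 trophoblast markers *Tfap2c* was higher, with sums of 30.7 to 34.8 in WT and 31.2 to 31.3 in KO. The part of these markers in the results was not tested, and in bulk RNA fewer cells of a type and less RNA per cell cannot be told apart. The Y-linked gene *Ddx3y* had 0.235 and 0.403 FPKM in WT against 16.4 and 20.6 in KO, so the lines also differed in Y-linked expression. No fragment numbers come with FPKM, so the sequencing depth is unknown.

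In *Bmal1* KO ESCs 7 of the 35 genes passed the test against WT, and 28 did not. *Idh2* and *Got1* were up-regulated, and *Pdp1*, *Me1*, *Pck2*, *Mpc1* and *Me2* were down-regulated. A gene passed at an adjusted p under 0.05 in limma on log2 values after adding 0.1 FPKM, with Benjamini-Hochberg adjustment over 12990 features with a mean of at least 0.5 FPKM, and all 35 genes met that minimum. Across those features 12.5% passed, 6.85% with KO higher and 5.60% with KO lower (890 and 728 features, against 1076 and 518 after scaling to features with a symbol). A 2-fold change was also exceeded by 4.14% of features (2.72% with KO higher, 1.42% with KO lower) and, in the group, by *Pdp1* alone, which was lower. The KO values all exceeded the WT values in 11 of the 35 genes and were all lower in 11, while the genotypes overlapped in 13. Over all tested features 58.8% did not overlap, 27.0% with KO higher and 31.7% with KO lower. The median log2 fold change was 0.02 over the 35 genes and -0.02 over all tested features. Of the 28 genes that did not pass, 27 had a 95% interval that lay within a 2-fold change in either direction, the exception being the weakly expressed *Pdk2*.

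**Figure D1:**
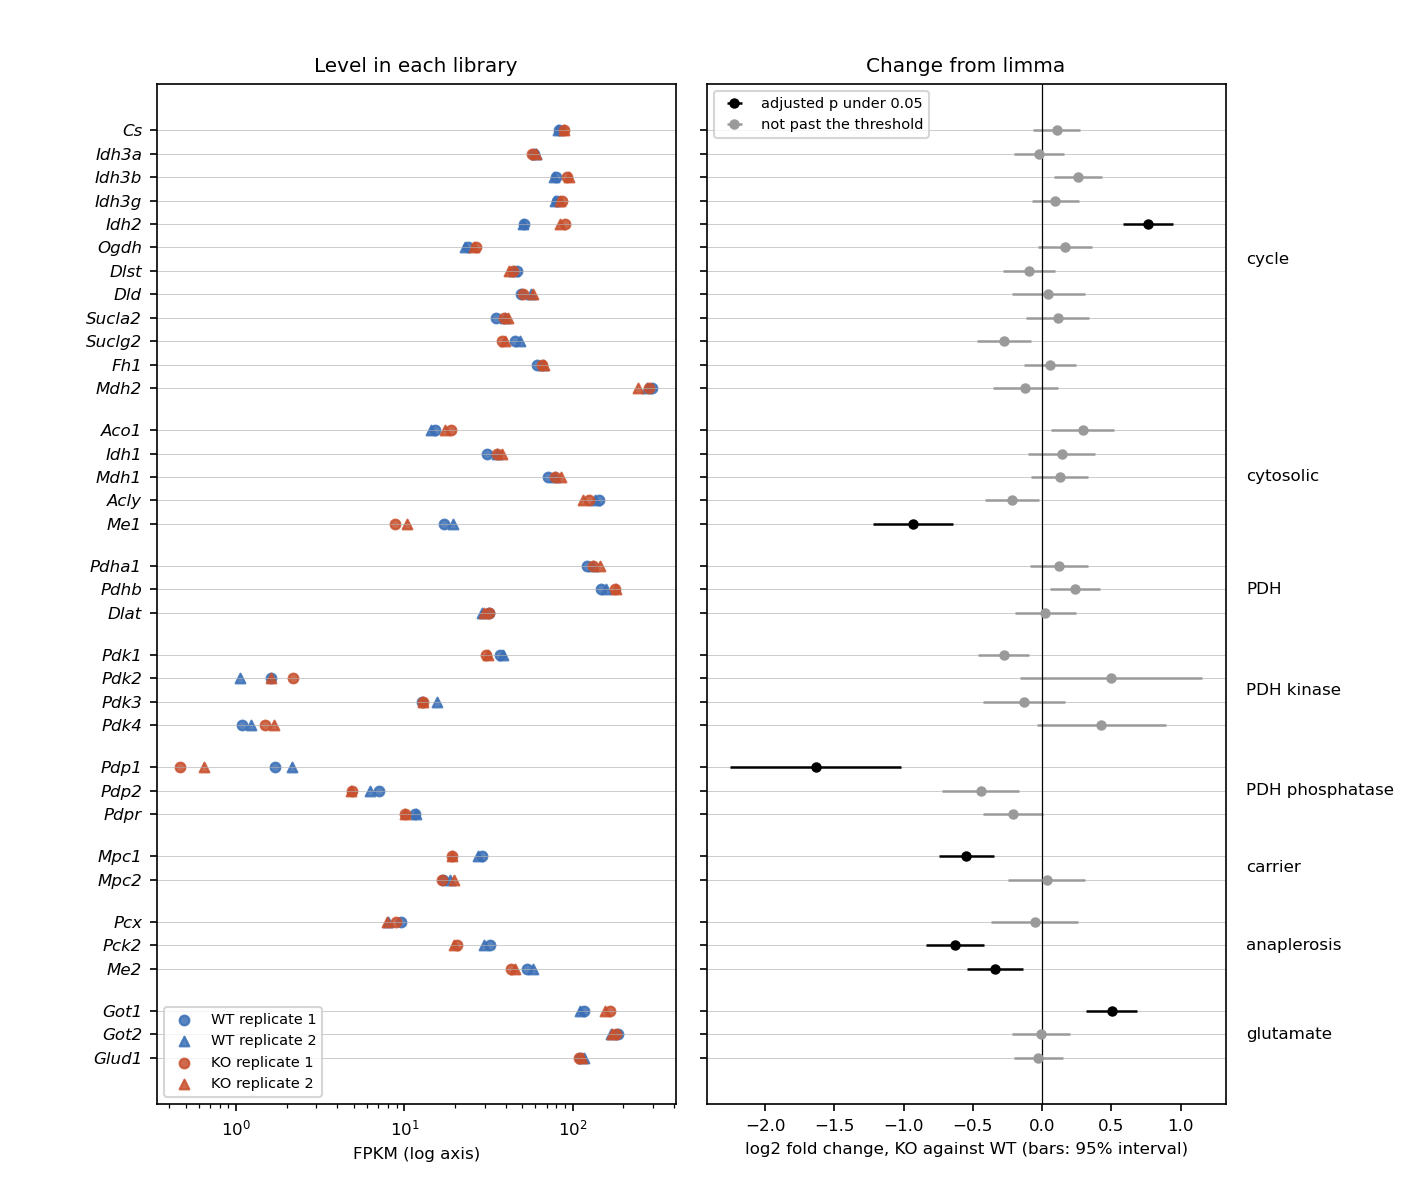
Levels and changes of the 35 genes, ordered by role. Left, FPKM in each library on a log axis (blue, WT; red, KO; circles, replicate 1; triangles, replicate 2). Right, log2 fold change of KO against WT from limma with its 95% interval, black for the 7 genes with an adjusted p under 0.05. *Pdp1*, the gene with the lowest KO level, has the largest fall at -1.64, and *Idh2* the largest rise at 0.76.

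By mean WT level the 12 cycle enzymes ranked from 1 (*Mdh2*) to 25 (*Ogdh*) among the 35 genes, with *Idh2* at 16. Of the 12, *Idh2* was the one that passed the test. *Idh2* encodes the mitochondrial isocitrate dehydrogenase that makes NADPH. Its FPKM was 51.4 and 51.0 in WT and 89.6 and 84.7 in KO. The replicates lay close together and the genotypes far apart, a 1.70-fold rise (log2 fold change 0.76, standard error 0.07, adjusted p = 0.00522 from limma). *Idh2* (ENSMUSG00000030541.16) is on chromosome 7, minus strand, at 80094846 to 80115392 (GRCm38). The tables give it the same coordinates as its neighbour *Zfp710*, although the 2 annotated genes do not overlap. The shared locus is 4.41 times as long as *Idh2*, so the value of *Idh2* is uncertain. *Zfp710* had 33.3 and 27.3 FPKM in WT and 30.4 and 25.3 in KO, with no rise beside that of *Idh2* (adjusted p = 0.604). Tested features that start within 5 Mb of *Idh2* had a median log2 fold change of -0.02.

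The NAD-dependent isocitrate dehydrogenase, which carries the cycle's own oxidation of isocitrate, is built of the products of *Idh3a*, *Idh3b* and *Idh3g*. The catalytic subunit gene *Idh3a* had 58.6 and 60.5 FPKM in WT and 57.2 and 60.2 in KO, overlapping ranges. *Idh3b* had 79.8 and 77.3 FPKM in WT and 93.0 and 95.1 in KO, with a log2 fold change of 0.26 that did not pass (adjusted p = 0.0683), although it did with quantile normalization (0.0483) and after scaling to the summed FPKM of features with a symbol (0.0437). Its adjusted p ran from 0.0437 to 0.155 over the settings that kept the 4 libraries and used no replicate block, the settings meant by each such range here. The locus given for *Idh3b* is shared with *Nop56* and 2.06 times as long as the gene, so its value is uncertain. *Idh3g* lay between 79.1 and 86.3 FPKM in the 4 libraries. Within each library, the level of *Idh2* relative to the mean of the 3 *Idh3* genes was 0.703 and 0.706 in WT and 1.14 and 1.06 in KO. *Idh2* was below each of the 3 genes in both WT libraries, and in both KO libraries it was above *Idh3a* and above the mean of the 3, but still below *Idh3b*. The exact permutation test cannot go below 0.333 with 2 libraries against 2, so no test is given for this or any other ratio.

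None of the other enzymes among the 12 cycle genes of the group passed the test. *Suclg1*, a succinyl-CoA ligase gene of the further list described below, did pass. Citrate synthase (*Cs*), which starts the cycle, had 83.3 and 81.9 FPKM in WT and 89.0 and 88.7 in KO (adjusted p = 0.359). *Mdh2*, the malate dehydrogenase that closes it, was the most abundant gene of the group, with 296 and 279 FPKM in WT and 284 and 246 in KO. Here the 2 genotypes overlapped, and the 95% interval of the log2 fold change ran from -0.36 to 0.12. The 2-oxoglutarate dehydrogenase genes *Ogdh*, *Dlst* and *Dld*, the last of which is shared with pyruvate dehydrogenase, had log2 fold changes of 0.16, -0.09 and 0.04, and fumarase (*Fh1*) one of 0.05.

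Succinyl-CoA ligase pairs a common alpha subunit with a beta subunit that makes either ATP (*Sucla2*) or GTP (*Suclg2*). *Suclg2* had 45.2 and 49.0 FPKM in WT and 38.1 and 39.5 in KO, a log2 fold change of -0.28 that did not pass (adjusted p = 0.0803). *Sucla2* had 35.1 and 39.7 FPKM in WT and 39.2 and 41.6 in KO, which overlapped. The ratio of *Sucla2* to *Suclg2* was 0.777 and 0.811 in WT against 1.03 and 1.05 in KO. The GTP form was thus the more abundant beta subunit RNA in WT, and the ATP form by a small margin in KO.

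At the entry of pyruvate, 1 of the 2 carrier subunits fell and none of the pyruvate dehydrogenase subunits passed the test. *Mpc1* had 28.9 and 27.2 FPKM in WT and 19.1 and 19.2 in KO. Both KO libraries lay well below both WT libraries, a 1.46-fold fall (log2 fold change -0.55, standard error 0.08, adjusted p = 0.0133 from limma). *Mpc1* (ENSMUSG00000023861.17) lies on the plus strand of chromosome 17, from 8282904 to 8297661, and shares its coordinates in the tables with *Sft2d1*. *Sft2d1*, annotated downstream of it, had 41.3 and 46.1 FPKM in WT and 38.6 and 40.6 in KO (adjusted p = 0.341). The shared locus is 2.96 times as long as *Mpc1*, so the value of *Mpc1* is uncertain. Its partner *Mpc2* had 17.0 and 18.6 FPKM in WT and 16.7 and 19.8 in KO, where the genotypes overlapped and the 95% interval of the log2 fold change ran from -0.24 to 0.31. *Mpc1* RNA exceeded *Mpc2* RNA 1.70-fold and 1.46-fold in the WT libraries. In the KO libraries the ratio was 1.14 and 0.967, near equal amounts of both subunits.

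Of the pyruvate dehydrogenase subunits, *Pdha1* and *Pdhb* encode the E1 enzyme that decarboxylates pyruvate and *Dlat* the E2 core that makes acetyl-CoA. *Pdhb* had 148 and 158 FPKM in WT and 179.6 and 180.6 in KO, a log2 fold change of 0.24 that did not pass (adjusted p = 0.0914), although it passed with quantile normalization (0.0442) and after scaling to features with a symbol (0.0445), the lowest of a range up to 0.190. *Pdha1* ran from 122 to 133 FPKM in WT and from 132 to 145 in KO, and *Dlat* from 28.8 to 31.9 FPKM over the 4 libraries. *Pdha1* is X-linked, as are *Idh3g* and *Pdk3*, and none of the 3 passed the test. The loci given for *Pdha1* and *Pdhb* are 9.26 and 10.65 times as long as the genes, so their values are uncertain. The first is shared with *Map3k15*, which was higher in KO (log2 fold change 0.91, adjusted p = 0.0454 from limma) but did not exceed 1.40 FPKM. The second is shared with *Pxk*, which did not pass (adjusted p = 0.202).

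The kinases were dominated by *Pdk1*, a known target of the hypoxia-inducible factor. *Pdk1* had 37.0 and 38.4 FPKM in WT and 30.6 and 31.5 in KO, without overlap but short of the threshold (log2 fold change -0.28, standard error 0.08, adjusted p = 0.0691). Its value is uncertain because the tables give it a locus far longer than the gene, shared with 7 other features, *Hat1* and *Itga6* among them, of which the noncoding *Platr26* was lower in KO (log2 fold change -0.75, adjusted p = 0.0203). *Pdk3* followed with 12.7 and 15.7 FPKM in WT and 12.9 and 12.8 in KO. *Pdk2* and *Pdk4*, the latter a gene induced by fasting and fatty acids in adult tissues, were near the bottom of the group. *Pdk4* had 1.08 and 1.22 FPKM in WT and 1.49 and 1.67 in KO, and *Pdk2* 1.60 and 1.05 in WT and 2.19 and 1.60 in KO. Neither passed, and *Pdk2* of WT replicate 1 and KO replicate 2 were all but equal. *Pdk1* made up 70.6% and 68.1% of the summed kinase FPKM in WT and 64.8% and 66.2% in KO.

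All 3 genes of the phosphatases that reverse these kinases were lower in both KO libraries than in both WT libraries. The same held for 31.7% of all tested features, and of the 3 genes only *Pdp1* passed the test. *Pdp1* encodes the catalytic subunit that calcium stimulates. It had 1.70 and 2.16 FPKM in WT and 0.466 and 0.644 in KO. Its WT level was low and its KO level the lowest of the group, a 3.11-fold fall (log2 fold change -1.64, standard error 0.25, adjusted p = 0.0151 from limma). The size rests on the value added before taking logs, since it was -0.91 with 1 FPKM added and -1.79 with 0.01, and the gene passed with each. *Pdp1* (ENSMUSG00000049225.14) lies on the minus strand of chromosome 4, from 11958184 to 11966452. Many of its neighbours were lower too: of 32 other tested features that start within 5 Mb of it, 15 (46.9%) passed with KO lower, 0 passed with KO higher, and their median log2 fold change was -0.58. *Pdp1* fell by 1.05 more than that median on the log2 scale, and the part of the region in its fall was not tested. For the other 6 genes that passed, the median of such neighbours lay between -0.16 and 0.03, with *Me2* at the low end.

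The other catalytic subunit gene, *Pdp2*, had 7.02 and 6.27 FPKM in WT and 4.89 and 4.81 in KO. The genotypes were well separated, but the log2 fold change was -0.44 with a standard error of 0.11 and missed the threshold (adjusted p = 0.0585), with a range from 0.0393 to 0.104 over those settings. *Pdpr*, the regulatory subunit, had 11.6 and 11.8 FPKM in WT and 10.1 and 10.1 in KO (log2 fold change -0.21, adjusted p = 0.175). *Pdp1* made up 19.5% and 25.6% of the summed *Pdp1* and *Pdp2* FPKM in WT and 8.70% and 11.8% in KO.

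BMAL1 acts with CLOCK at E-boxes, for which the letters CACGTG (the same on both strands) were searched in RefSeq promoter windows on GRCm38.p6, from 250 bases before a start site to 50 after it. Of the 35 genes 32 had a window, and 5 of these (15.6%) held the motif, against 8.09% of 27025 genes with a window. The 5 were *Pdp2*, *Pdpr*, *Ogdh*, *Pdk2* and *Pcx*, and none of them passed the test of expression. *Pdp2* did pass in 2 of the 10 settings that kept the 4 libraries and used no replicate block. Of the 7 genes that passed the test, 5 had a window and 0 held the motif. These are too few genes to compare with 8.09%, and the count says nothing about other sites or about binding. The 5 genes with the motif went both ways, with log2 fold changes of -0.44 (*Pdp2*), -0.21 (*Pdpr*), -0.05 (*Pcx*), 0.16 (*Ogdh*) and 0.50 (*Pdk2*). *Pdp1*, the phosphatase gene that passed the test, was not among them. The windows of *Pdp2* and *Pdpr* are shown as examples, with the E-box in capitals. It begins 219 bases before the start site in *Pdp2* (chr8:104591222-104591521, plus strand) and 172 bases before it in *Pdpr* (chr8:111094495-111094794, plus strand).
Pdp2: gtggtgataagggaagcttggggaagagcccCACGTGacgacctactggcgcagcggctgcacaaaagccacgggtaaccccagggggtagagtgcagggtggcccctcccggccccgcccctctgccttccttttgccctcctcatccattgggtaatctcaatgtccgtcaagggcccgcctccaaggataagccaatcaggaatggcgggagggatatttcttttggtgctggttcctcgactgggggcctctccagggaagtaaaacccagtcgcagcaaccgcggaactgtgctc
Pdpr: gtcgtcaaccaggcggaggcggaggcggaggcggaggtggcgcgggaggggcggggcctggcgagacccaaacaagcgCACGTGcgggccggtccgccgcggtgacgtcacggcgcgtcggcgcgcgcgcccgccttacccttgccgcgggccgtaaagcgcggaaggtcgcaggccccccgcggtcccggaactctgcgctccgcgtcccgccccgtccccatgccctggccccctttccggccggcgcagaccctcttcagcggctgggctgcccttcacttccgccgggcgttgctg

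Sums over each role were set against each other as a description, since none of the 4 kinases or 3 subunits passed the test. Summed over the 4 genes, kinase FPKM was 52.4 and 56.3 in WT and 47.2 and 47.6 in KO, while *Pdha1*, *Pdhb* and *Dlat* together had 302 and 319 in WT and 344 and 355 in KO. Summed kinase RNA amounted to 17.4% and 17.7% of the subunit RNA in WT and 13.7% and 13.4% in KO. The catalytic phosphatases *Pdp1* and *Pdp2* together fell from 8.72 and 8.42 FPKM to 5.35 and 5.46. The ratio of kinase to phosphatase RNA was 6.01 and 6.69 in WT and 8.82 and 8.73 in KO. The genotypes did not overlap in either ratio of sums. The kinase sum is mostly *Pdk1*, and *Pdk2* and *Pdk4* did not share its lower level in KO.

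**Figure D2:**
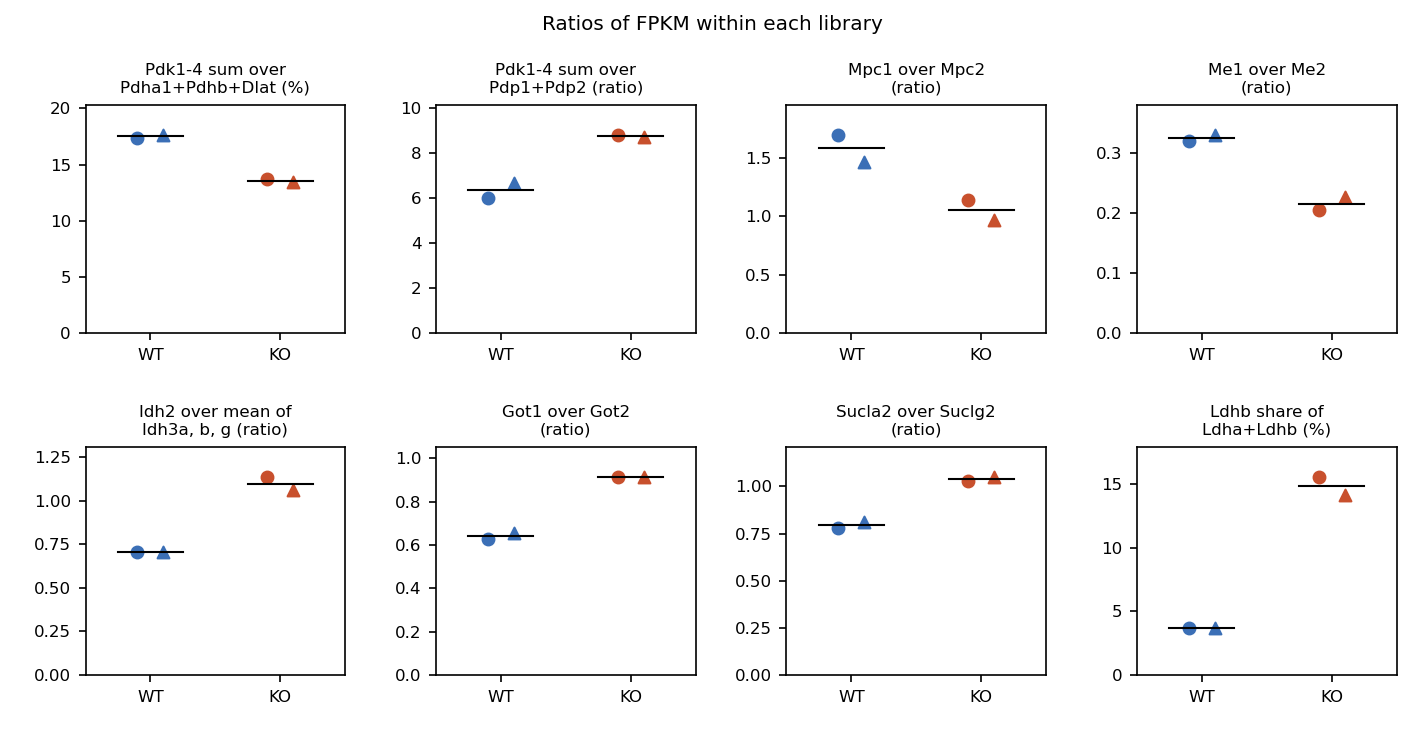
Ratios of FPKM within each library, for WT (blue) and KO (red), with each axis from 0. Circles are replicate 1, triangles replicate 2 and lines the mean of the 2 libraries. The genotypes do not overlap in any of the 8 panels, and the share of *Ldhb* in lactate dehydrogenase RNA moves most, from 3.69% to 14.8% on average. The panels were picked from more ratios. Of those not shown, *Mdh1* over *Mdh2* overlapped, with 0.241 and 0.281 in WT and 0.277 and 0.345 in KO. The share of *Pdk3* in the kinase sum overlapped too.

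The cytosolic *Me1* is described here with *Me2*, *Pck2* and *Pcx*, the enzymes that add or remove cycle intermediates. All but *Pcx* passed with KO lower, as did 5.60% of all tested features, and the call of *Me2* was not stable. Malic enzymes turn malate into pyruvate, the cytosolic form (*Me1*) with the release of NADPH and the mitochondrial form (*Me2*) mainly with NADH. *Me1* had 17.2 and 19.3 FPKM in WT and 8.81 and 10.3 in KO. Its RNA was lower by close to 2-fold (log2 fold change -0.93, standard error 0.12, adjusted p = 0.00930 from limma), and the fall exceeded 2-fold without WT replicate 1 (-1.01) or without KO replicate 2 (-1.04). *Me1* (ENSMUSG00000032418.15) lies on the minus strand of chromosome 9, from 86581371 to 86695953, and shares its coordinates in the tables with *A330041J22Rik*, which did not exceed 0.232 FPKM.

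*Me2* was the more abundant malic enzyme, with 53.8 and 58.4 FPKM in WT and 43.0 and 45.5 in KO. The fall was small and only just passed in limma (log2 fold change -0.34, standard error 0.08, adjusted p = 0.0491). The call is not stable, since over those settings the adjusted p ran from 0.0302 to 0.117 and *Me2* passed in only 4 of 10. When 1 library was left out, its log2 fold change ran from -0.40 to -0.28. The gene (ENSMUSG00000024556.4) lies on the minus strand of chromosome 18, from 73769903 to 73815449. The ratio of *Me1* to *Me2* was 0.320 and 0.331 in WT and 0.205 and 0.227 in KO.

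*Pck2*, which makes phosphoenolpyruvate from oxaloacetate in mitochondria, had 32.4 and 29.8 FPKM in WT and 20.5 and 19.7 in KO. This was a clear 1.55-fold fall (log2 fold change -0.63, standard error 0.08, adjusted p = 0.0108 from limma). *Pck2* (ENSMUSG00000040618.7) lies on the plus strand of chromosome 14, from 55540266 to 55551242, with no other feature on its locus. Pyruvate carboxylase (*Pcx*), which refills oxaloacetate from pyruvate, had 9.54 and 7.98 FPKM in WT and 8.91 and 7.93 in KO, with overlap (adjusted p = 0.813).

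The cytosolic enzymes other than *Me1* did not pass. ATP citrate lyase (*Acly*), which splits exported citrate into acetyl-CoA and oxaloacetate, had 144 and 136 FPKM in WT and 125 and 116 in KO (log2 fold change -0.22, adjusted p = 0.135). *Aco1*, a cytosolic aconitase that doubles as an iron-responsive RNA-binding protein, had 15.2 and 14.3 FPKM in WT and 18.9 and 17.3 in KO (log2 fold change 0.29, adjusted p = 0.0982). Both were separated between genotypes, in opposite directions. *Mdh1*, the cytosolic malate dehydrogenase, had a log2 fold change of 0.12, and *Idh1*, the cytosolic counterpart of *Idh2*, one of 0.14. The ratio of *Idh1* to *Idh2* was 0.604 and 0.699 in WT and 0.395 and 0.450 in KO.

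Of the 3 genes of glutamate entry, the cytosolic *Got1* passed the test and the mitochondrial *Got2* and *Glud1* did not. *Got1*, the cytosolic aspartate aminotransferase of the malate-aspartate shuttle, had 117 and 110 FPKM in WT and 166 and 156 in KO. Its RNA rose 1.41-fold (log2 fold change 0.50, standard error 0.08, adjusted p = 0.0147 from limma). The call was lost when the variance was not allowed to follow expression (adjusted p = 0.0539), the upper end of a range from 0.00458. *Got1* (ENSMUSG00000025190.13) lies on the minus strand of chromosome 19, from 43499752 to 43524605. The mitochondrial form *Got2* had 187 and 168 FPKM in WT and 181 and 171 in KO, and glutamate dehydrogenase (*Glud1*) 110 and 117 in WT and 109 and 113 in KO. Both overlapped, with 95% intervals of the log2 fold change from -0.22 to 0.20 and from -0.21 to 0.15. The ratio of *Got1* to *Got2* went from 0.626 and 0.656 in WT to 0.914 and 0.915 in KO.

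A further list of 36 genes held the rest of the pathway: the remaining subunits, lactate dehydrogenases, alanine aminotransferases, lipoylation enzymes and metabolite carriers. Of these 33 had a row, and 30 were tested, with a median log2 fold change of 0.08. Of the 30, 6 passed with KO higher and 3 with KO lower, beside 6.85% and 5.60% of all tested features. The list was chosen with earlier results of these data known. *Ldha*, the lactate dehydrogenase subunit that prevails in glycolytic cells, fell from 888 and 877 FPKM in WT to 603 and 587 in KO (log2 fold change -0.57, adjusted p = 0.00989). *Ldhb*, the subunit of oxidative tissues, rose from 33.8 and 33.8 FPKM to 111 and 96.4 (log2 fold change 1.61, adjusted p = 0.00169). *Ldhb* thus made up 3.66% and 3.71% of the lactate dehydrogenase RNA in WT and 15.6% and 14.1% in KO, and *Ldha* still exceeded it in every library. *Ldhb* is on chromosome 6, where the other tested features within 5 Mb had a median log2 fold change of -0.03.

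Among the partners of the enzymes above, *Suclg1*, the alpha subunit of both succinyl-CoA ligases, rose from 43.3 and 40.6 FPKM in WT to 79.8 and 82.6 in KO (log2 fold change 0.95, adjusted p = 0.00332). Its ratio to the summed beta subunits was 0.538 and 0.457 in WT and 1.03 and 1.02 in KO. *Suclg1* lies in another stretch of chromosome 6 in which most tested features were higher in KO: 28 of 38 tested neighbours within 5 Mb (73.7%) passed with KO higher and their median log2 fold change was 0.86, close to its own. The part of that stretch in the rise of *Suclg1* was not tested. *Suclg2*, also on chromosome 6, lies outside it, with a neighbour median of 0.10.

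*Nnt*, the mitochondrial transhydrogenase that makes NADPH as *Idh2* does, rose from 6.51 and 5.99 FPKM to 10.7 and 10.9 (log2 fold change 0.78, adjusted p = 0.00947). *Acss1*, which activates acetate in mitochondria, rose from 1.69 and 1.82 FPKM to 4.52 and 4.08 (log2 fold change 1.25, adjusted p = 0.00725). By contrast, the subunits *Pdhx*, *Sdha*, *Sdhb* and *Sdhd* had log2 fold changes from 0.01 to 0.05 and *Sdhc* one of 0.37 (adjusted p = 0.0991), none of which passed.

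The remaining calls lay around glutamate and aspartate. *Gls2*, a glutaminase, fell from 15.4 and 15.4 FPKM to 10.2 and 10.3 (log2 fold change -0.58, adjusted p = 0.0132). *Gpt2*, the mitochondrial alanine aminotransferase, rose from 41.5 and 43.8 FPKM to 56.3 and 59.0 (log2 fold change 0.44, adjusted p = 0.0216), a call lost without KO replicate 2 (0.0625) or without a variance trend (0.0665). The mitochondrial aspartate-glutamate carriers moved apart, *Slc25a12* with a log2 fold change of -0.37 (adjusted p = 0.0444) and *Slc25a13* with one of 0.36 (adjusted p = 0.0464). *Slc25a13* accounted for 44.0% and 44.4% of their joint RNA in WT and 57.1% and 56.6% in KO. Neither carrier call is firm, since *Slc25a12* lost it without WT replicate 2 (0.133) or KO replicate 1 (0.164), and *Slc25a13* without WT replicate 1 (0.148), KO replicate 1 (0.0636) or KO replicate 2 (0.160). Both were also lost with no filter on low values (0.0716 and 0.0727) and without a variance trend (0.106 and 0.109), and *Slc25a12* after scaling to features with a symbol (0.0926).

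**Figure D3:**
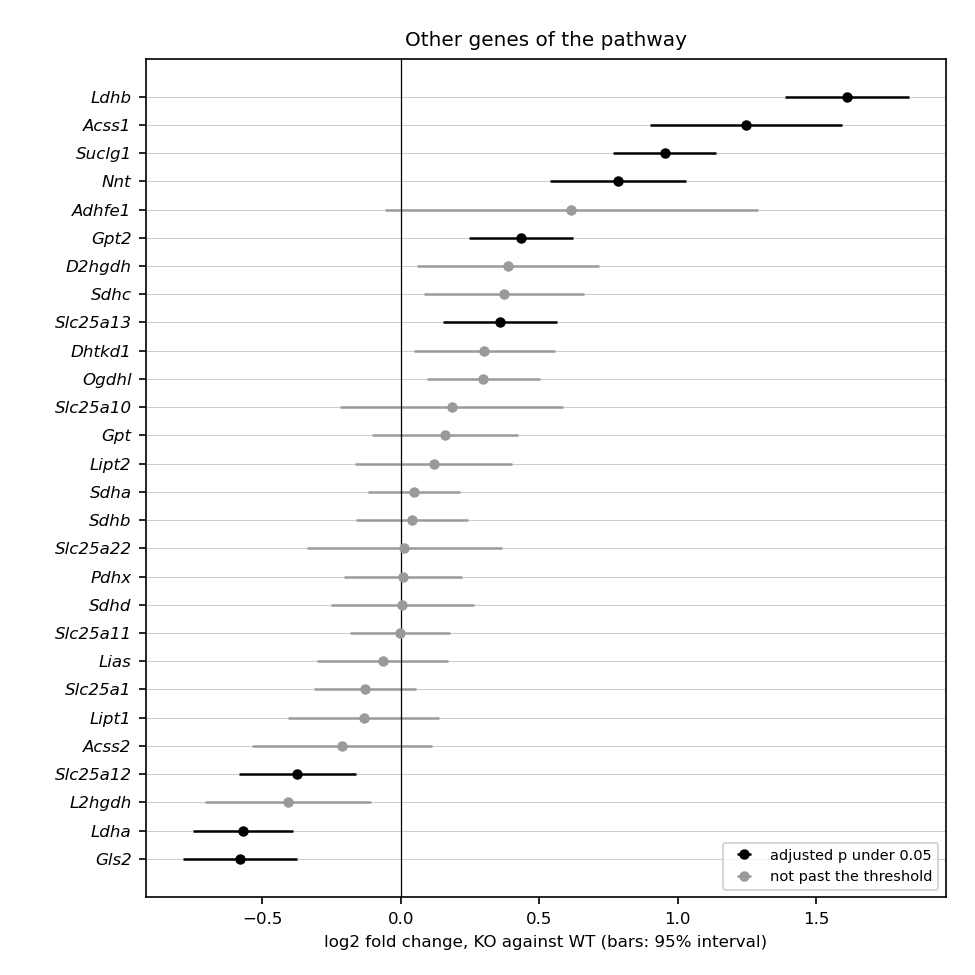
Log2 fold change of KO against WT for 28 of the 30 tested genes of the further pathway list, with 95% intervals from limma. Black marks the 9 genes with an adjusted p under 0.05, from *Gls2* at -0.58 to *Ldhb* at 1.61.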

How the data were processed

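For each of the 4 libraries the authors aligned reads to GRCm38 with TopHat2 2.1.1 and Bowtie2 2.3.0 and a set of known transcripts, and deposited the FPKM per gene that Cufflinks 2.2.1 estimated, as the paper and the submitters' processing notes state. Where genes share a locus, the tables give them the same coordinates, as for 11 of the 35 genes. FPKM hold no fragment numbers, so depth is unknown and precision rests on replicates alone. Libraries were grouped by their labels. FPKM were compared as log2(FPKM + 0.1) for features with a mean of at least 0.5, in limma 3.58.1 under R 4.3.3, with a variance trend and Benjamini-Hochberg adjustment over 12990 features. Fold changes on this scale understate those of low genes. The fit was tested on simulated data. Features without a symbol held 26.8% and 37.3% of the summed FPKM in WT and 19.0% and 18.1% in KO, so scaling was varied. Of the alternatives, 11 kept the 4 libraries and 4 left out 1 each. Gene positions came from GENCODE M21, promoters from RefSeq. Python 3.11.15 was used otherwise. The 35 genes and the lists were chosen with earlier results of these data known. All 35 are described, with full statistics where they passed, and of the further pathway list those that passed are named, with a few subunits that did not. The neighbours within 5 Mb were examined after the values were seen. Of that list, 2 tested genes that did not pass are not reported here by name.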

Additional observations from a re-analysis of the deposited data

How the results depend on the processing

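The 7 genes that passed kept their direction under each of the 15 alternatives. *Idh2*, *Me1*, *Pdp1*, *Mpc1* and *Pck2* also passed under each, while *Got1* and *Me2* lost their calls as given above. With quantile normalization and with scaling to features with a symbol, 4 genes passed with KO higher instead of 2, and without a variance trend 1 did. *Pdp1* was over 2-fold under all but a pseudocount of 1, where 0 genes were. Leaving out 1 library gave 1 to 2 genes over 2-fold, 2 with KO higher in each case, and 4 to 5 with KO lower. Over all features, 890 passed with KO higher and 728 with KO lower, against 571 and 380 when low values were kept, 708 and 457 without a variance trend, and 1076 and 518 with scaling to features with a symbol. Without KO replicate 1 more features passed with KO lower (706) than with KO higher (666), and over the 4 libraries left out in turn the counts ran from 666 to 1112 with KO higher and from 646 to 898 with KO lower. The median over the 35 genes ran from 0.00 to 0.03 when libraries were left out, and scaling moved the median of all tested features by at most 0.07. *Idh3a*, *Got2*, *Glud1* and *Pcx*, all near 0, changed sign with the scaling.

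The labels do not say that libraries of equal replicate number were processed together. With the replicate number as a block, 6 genes passed with KO higher and 10 with KO lower. Calls rose over all 12990 tested features too, to 1807 with KO higher and 2245 with KO lower, from 890 and 728 without the block. The genes gained were *Idh3b*, *Ogdh*, *Aco1*, *Pdhb*, *Suclg2*, *Acly*, *Pdk1*, *Pdp2* and *Pdpr*, with adjusted p from 0.00978 to 0.0484, and none was lost. The difference between replicates 1 and 2 was weakly related between WT and KO (Pearson's r 0.071, Spearman's rho 0.387, across 12990 features). In a comparison chosen after seeing the data, features under 0.05 FPKM repeated a single ratio between libraries of equal number more often (8.46% and 13.4% of features within 0.02 on the log2 scale) than between the other pairs (1.94% to 2.71%), a hint from the data and not from the design.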
